A study of Homo sapiens with 17 samples.

Results

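CXCL10, CXCL11, CXCL16, CCL5 and CX3CL1 are secreted or membrane-bound proteins that draw T cells, natural killer cells and other leukocytes towards their source. They were taken by symbol from a table of gene counts of MDA-MB-231 cells and make up 5 of its 58870 entries. MDA-MB-231 is an established human line from a triple-negative breast cancer, which the labels place in the mesenchymal basal B class. The cells were grown in medium with serum and were treated with 45 nM TRAIL, a TNF-family cytokine that binds death receptors and can trigger apoptosis; the labels call this dose suboptimal. RNA was taken after 0, 1, 3, 6, 12 and 24 h, and poly(A) RNA was sequenced with a stranded paired-end kit. The 17 libraries analysed comprise 3 per time except 1 h, which has 2. All of them, including those at 0 h, carry the same TRAIL treatment label, and no library analysed here was left untreated to a later time, so time with TRAIL and time in culture cannot be told apart. Nothing in the labels says that the libraries of a time came from separate cultures, so the p-values below measure the spread between these libraries only, which may be technical.

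CXCL10 and CXCL11 share the receptor CXCR3, which is found on activated T cells and natural killer cells, and both genes are known as targets of interferon and of NF-κB, the transcription factor family that death receptors of the TNF family can also engage. CCL5 signals through receptors that include CCR1 and CCR3 and is likewise known as an NF-κB target. CXCL16, the ligand of CXCR6, and CX3CL1, the ligand of CX3CR1, are made as transmembrane proteins that ADAM10 and ADAM17 can cut from the cell surface.

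The members lie on 3 chromosomes (GENCODE 29, GRCh38). CXCL10 (ENSG00000169245.6, chr4:76021117-76023497, minus strand) and CXCL11 (ENSG00000169248.12, chr4:76033682-76041415, minus strand) are neighbours, with 10184 bases between them. CCL5 (ENSG00000271503.6, chr17:35871491-35880793, minus strand) and CXCL16 (ENSG00000161921.15, chr17:4733526-4739922, minus strand) are on chromosome 17, and CX3CL1 (ENSG00000006210.7, chr16:57372458-57385048, plus strand) is on chromosome 16. Other annotated genes overlap all members but CX3CL1. Of these, ART3, which spans CXCL10 and CXCL11 on the opposite strand, and the antisense gene AC015849.1, which covers CCL5, had 0 to 1 count per library. MED11, which shares 85 bases with CXCL16 on the opposite strand, had 245 to 389 counts.

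Promoter sequence from RefSeq (GRCh38.p14) was found for 2 of the 5 members, CXCL10 and CXCL11. It is shown because both genes rose during the series and are known targets of the same 2 factor families. The CXCL10 sequence is the 250 bases before the start (chr4:76023498-76023747, minus strand). For CXCL11, GENCODE 29 exons cover 127 of the 250 bases, so only 30 bases around the match are shown (chr4:76036127-76036156, minus strand). Both run 5′ to 3′ on the gene's strand, and capitals mark matches to the NF-κB consensus and to the interferon-stimulated response element (GAAA, any 2 bases, GAAA).
CXCL10: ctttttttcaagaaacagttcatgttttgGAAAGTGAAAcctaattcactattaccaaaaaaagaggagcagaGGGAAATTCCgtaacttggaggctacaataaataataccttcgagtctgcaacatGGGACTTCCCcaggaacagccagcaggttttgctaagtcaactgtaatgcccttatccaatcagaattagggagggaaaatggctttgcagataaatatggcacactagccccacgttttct
CXCL11: gactcaaagaGGGAAATTCCtgtgccataa
The same NF-κB match, GGGAAATTCC, lies 177 to 168 bases before the CXCL10 start and 76 to 67 bases before the CXCL11 start. CXCL10 holds a second NF-κB match, GGGACTTCCC, 122 to 113 bases before the start, and 1 response element match, GAAAGTGAAA, at 221 to 212 bases. The CXCL11 window also holds TATAAA at 42 to 37 bases. Searched on both strands in windows of the same length, the NF-κB consensus was found in 9.96%, the response element in 3.02% and TATAAA in 10.7% of 35116 promoters. These matches describe the letters and show no binding.

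Total counts ran from 13731520 to 19234924 per library. The members' levels are given as CPM, counts scaled by library totals that were adjusted by TMM factors, and every member's counts were whole numbers in all 17 libraries. At these depths the members are weakly expressed. Per kilobase of transcript, the mean level over the 17 libraries was 2.30 CPM per kb for CXCL16, 1.11 for CX3CL1, 0.801 for CXCL11, 0.500 for CCL5 and 0.341 for CXCL10. On this scale CXCL16 stood at the 29.6th percentile of 15329 tested genes with a length, CX3CL1 at 19.6, CXCL11 at 16, CCL5 at 10.6 and CXCL10 at 7.12. All 5 members passed the filter on low counts and were tested among 15365 genes with edgeR's quasi-likelihood test, with Benjamini-Hochberg adjustment over all of them and a call at an adjusted p under 0.05. Over the whole series, 4 of the 5 members changed, all but CXCL16, where 64.2% of all genes tested did.

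**Figure D1:**
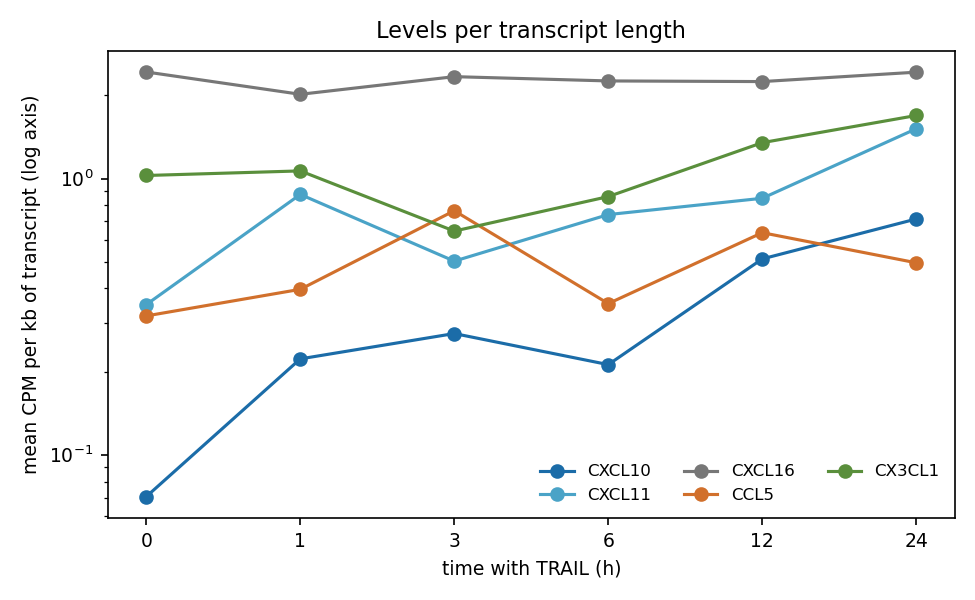
Mean level per kilobase of transcript (CPM per kb, log axis) against time with TRAIL (h), 1 line per chemokine. CXCL16 is the highest member at all 6 times. CXCL10 starts lowest, at 0.0705 CPM per kb, and its mean passes that of CCL5 by 24 h. In replicate 2 of 24 h CXCL10 is below CCL5 (0.316 against 0.475 CPM per kb), and the difference between these genes was not tested.

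CXCL10 was at the edge of detection at 0 h, with 4 counts in replicate 1 and 0 in the other two libraries. The 1 h libraries had 3 and 5 counts, those of 3 h had 3, 5 and 5, and those of 6 h had 1, 3 and 9. At 12 h there were 11, 11 and 9 counts, and at 24 h there were 23, 6 and 12. All 6 libraries of 12 and 24 h therefore lay above all 3 of 0 h, while the libraries of 1, 3 and 6 h overlapped with those of 0 h. In CPM the level went from 0.0830 ± 0.144 (SD, n = 3) at 0 h to 0.602 ± 0.134 (SD, n = 3) at 12 h and 0.840 ± 0.489 (SD, n = 3) at 24 h. In bulk RNA, more cells that express a gene and more RNA per cell cannot be told apart.

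Against 0 h, CXCL10 was higher at 12 h by 2.73 on the log2 scale (SE 0.84, edgeR adjusted p = 0.0322) and at 24 h by 3.23 (SE 0.80, edgeR adjusted p = 0.00344). Because so few counts stand at 0 h, the ratio of the summed counts is the plainer measure: 41 counts against 4 gave 10.2-fold at 24 h (95% interval 3.71 to 39.4), and 31 against 4 gave 7.11-fold at 12 h (2.51 to 27.7). These intervals cover counting error only. The call at 24 h held when any 1 library was left out. Without replicate 1 of 0 h, the other libraries of 0 h stood at 0. Set against a floor of 3 counts over both, the 24 h sum gave 9.11-fold. That figure takes the 24 h sum as exact and drops the only 0 h library with counts, so it is no lower limit. The call at 12 h was lost without replicate 2 of 0 h (log2 2.18, adjusted p = 0.126), replicate 3 of 0 h (2.18, 0.0984), or replicate 1 (2.55, 0.0739), replicate 2 (2.78, 0.0792) or replicate 3 (2.84, 0.0509) of 12 h, all by edgeR; DESeq2 gave no adjusted p for CXCL10 against 0 h. At 1, 3 and 6 h the differences were 1.56, 1.86 and 1.56 with adjusted p of 0.987, 0.177 and 0.219, and their intervals reached from below 0 to 3.87, 3.92 and 3.64. CXCL10 was called at 3 and 6 h without replicate 1 of 0 h (adjusted p = 0.0253 and 0.0365 by edgeR). All 0 h counts were then at 0, and the same floor gave 3.45-fold and 2.82-fold, again no lower limits. With all libraries, the 95% interval of the ratio of summed counts was 1.2 to 16.4 at 3 h and 0.979 to 13.3 at 6 h.

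CXCL11 was detected in every library. The 0 h libraries had 10, 5 and 5 counts, those of 1 h had 16 and 16, and those of 3 h had 8 each. Later libraries had 15, 10 and 19 counts (6 h), 18, 19 and 15 counts (12 h), and 33, 30 and 24 counts (24 h). The 24 h libraries were the highest of all 17, and those of 1, 6, 12 and 24 h lay above those of 0 h without overlap. The mean level was 0.415 ± 0.180 CPM (SD, n = 3) at 0 h, 1.04 ± 0.0379 (SD, n = 2) at 1 h, 0.596 ± 0.0239 (SD, n = 3) at 3 h, 0.879 ± 0.191 (SD, n = 3) at 6 h, 1.01 ± 0.206 (SD, n = 3) at 12 h and 1.80 ± 0.174 (SD, n = 3) at 24 h.

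CXCL11 was higher than at 0 h by 1.08 (log2, SE 0.34, edgeR adjusted p = 0.0196) at 6 h, by 1.25 (SE 0.33, adjusted p = 0.0164) at 12 h and by 2.10 (SE 0.31, adjusted p = 5.97e-05), or 4.28-fold, at 24 h. The difference at 1 h, 1.31 (SE 0.36), did not pass over all genes (edgeR adjusted p = 0.247), although its unadjusted p was 0.00166. At 24 h CXCL11 also exceeded each of the other times, by 0.79 against 1 h (edgeR adjusted p = 0.0417), 1.58 against 3 h (1.66e-04), 1.02 against 6 h (0.00853) and 0.85 against 12 h (0.0385). Between 24 h and 1, 3 and 6 h, 39%, 54.2% and 23.2% of all genes were called. The call against 1 h was lost without either library of 1 h, under upper-quartile scaling and with no filter on low counts. It was also not made by DESeq2, with only the times compared or with close replicate pairs averaged. The call at 24 h against 0 h held in every alternative run and without any 1 library. The calls at 6 and 12 h were lost without single libraries. At 6 h this was so without replicate 2 (0.91, adjusted p = 0.0776) or 3 (0.91, 0.0750) of 0 h or replicate 3 of 6 h (0.95, 0.0983), and at 12 h it was so without replicate 2 (1.08, 0.0754) or 3 (1.07, 0.0629) of 0 h or replicate 1 (1.09, 0.0581) or 2 (1.28, 0.0520) of 12 h, by edgeR. The 6 h call was also lost with no filter on low counts (adjusted p = 0.0628), by DESeq2 (0.0696) and with close replicate pairs averaged (0.0519). The difference between 12 and 24 h was lost without any 1 of those 6 libraries, with edgeR adjusted p between 0.0583 and 0.122.

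At each of the 5 times with 3 libraries, the library with the highest CPM of CXCL10 was also the one with the highest CPM of CXCL11. At 3 h CXCL11 had 8 counts in every library and CXCL10 had 3, 5 and 5, so scaling alone picked the top library. At 12 h the top library also turned on scaling, with 11, 11 and 9 counts of CXCL10 and 18, 19 and 15 of CXCL11. Across the 17 libraries the Pearson correlation of their log2 CPM was 0.772, and over the 6 time means it was 0.842. This describes neighbouring genes at low counts that share library and depth.

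**Figure D2:**
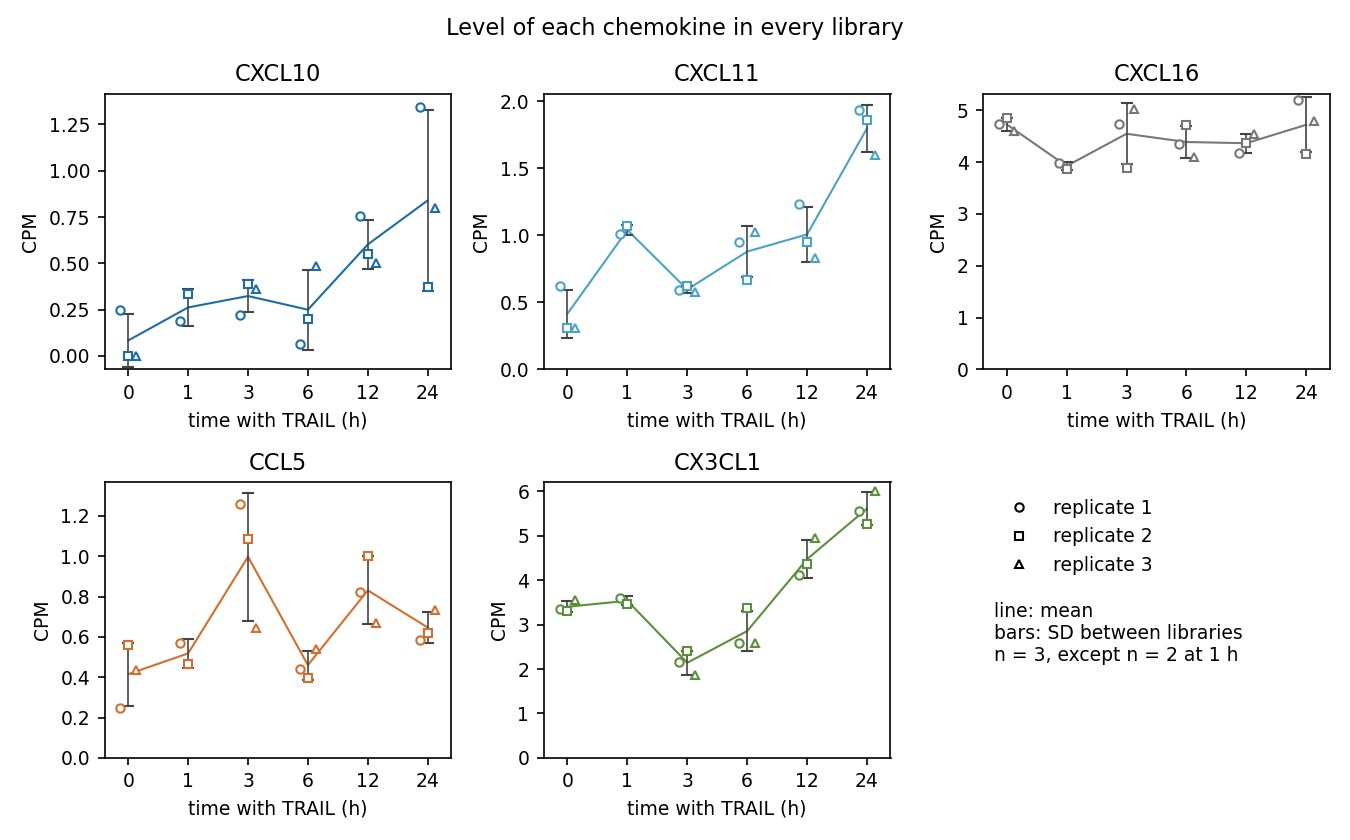
CPM of each chemokine (vertical axis) in every library against time with TRAIL (h); symbols are replicates 1 to 3, lines join the means, and bars are the SD between libraries (n = 3, n = 2 at 1 h). CXCL10, CXCL11 and CX3CL1 are highest in mean at 24 h, CCL5 is highest at 3 h, and CXCL16 stays between 3.87 and 5.21 CPM.

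CCL5, a ligand of CCR1 and CCR3, had its highest mean CPM at 3 h. Its counts were 4, 9 and 7 in the 0 h libraries, 9 and 7 in those of 1 h, and 17, 14 and 9 in those of 3 h. They were 7, 6 and 10 in those of 6 h, 12, 20 and 12 in those of 12 h, and 10, 10 and 11 in those of 24 h. In CPM the 3 h libraries, at 1.26, 1.09 and 0.645, all lay above those of 0 h, at 0.249, 0.561 and 0.436, and so did those of 12 and 24 h. The 6 h libraries, at 0.442, 0.398 and 0.540, overlapped with 0 h. CCL5 was higher at 3 h than at 0 h by 1.25 (log2, SE 0.37, edgeR adjusted p = 0.0241), or 2.37-fold, and lower at 6 h than at 3 h by 1.09 (log2 change -1.09, SE 0.36, adjusted p = 0.0187). The differences from 0 h at 12 h (0.99, edgeR adjusted p = 0.0778) and 24 h (0.62, adjusted p = 0.218) did not pass.

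Both CCL5 calls were lost when single libraries were left out. The 3 h call was lost without replicate 1 (0.99, adjusted p = 0.0795) or 3 (1.28, 0.0658) of 0 h, or without replicate 1 (0.109) or 2 (0.0767) of 3 h. The fall from 3 to 6 h was lost without replicate 1 (-0.88, 0.0921) or 2 (-1.02, 0.0605) of 3 h or replicate 2 of 6 h (adjusted p = 0.0621). The test over all times (edgeR adjusted p = 0.0282) was lost without replicate 1 of 0 h (0.0534), replicate 1 (0.0878) or 2 (0.0709) of 3 h or replicate 2 of 12 h (0.0510). With no filter on low counts the adjusted p was 0.0628 at 3 h, 0.0737 from 3 to 6 h and 0.110 over all times, and DESeq2 gave 0.0711 from 3 to 6 h and 0.136 over all times. Over all times it was 0.0418 with length and GC offsets and 0.0556 with those offsets and a replicate block.

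CX3CL1, the transmembrane ligand of CX3CR1, first fell and then rose. Libraries of 0 h had 54, 53 and 57 counts, those of 1 h had 57 and 52, and those of 3 h had 29, 31 and 26. The count was 41, 51 and 48 in the 6 h libraries, 60, 87 and 89 in the 12 h libraries, and 95, 85 and 90 in the 24 h libraries. The 3 h libraries, at 2.15, 2.41 and 1.86 CPM, were the lowest of the 17, and those of 24 h, at 5.56, 5.27 and 6.00 CPM, the highest. The 0 h libraries lay between, at 3.36, 3.30 and 3.55 CPM.

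At 3 h CX3CL1 was lower than at 0 h by 1.59-fold (log2 change -0.67, SE 0.17, edgeR adjusted p = 0.00904). At 24 h it was 1.65-fold higher than at 0 h (log2 0.72, SE 0.14, edgeR adjusted p = 8.69e-04) and higher than at 3 h by 1.39 (log2, SE 0.16, adjusted p = 8.17e-07). Between consecutive times it fell from 1 to 3 h (log2 change -0.73, edgeR adjusted p = 0.0216) and rose from 6 to 12 h (0.66, adjusted p = 0.00372). The calls at 3 and 24 h against 0 h and from 6 to 12 h held without any 1 library. The fall from 1 h was lost without either library of 1 h (adjusted p = 0.173 and 0.0843) or replicate 1 (0.0616) or 3 (0.0673) of 3 h, and by DESeq2 (0.0694). At 12 h the difference from 0 h, 0.40 (edgeR adjusted p = 0.0754), passed, among the alternatives run, only with offsets for transcript length and GC content (0.44, adjusted p = 0.0346) and with the same offsets beside a replicate block (0.44, 0.0445).

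CXCL16, the ligand of CXCR6 and the best measured member, had 50 to 89 counts per library. Over the 6 times in order, the mean was 4.73, 3.93, 4.55, 4.39, 4.37 and 4.72 CPM, and the libraries ranged from 3.87 to 5.21 CPM. No difference from 0 h passed the test, and the test over all times gave an edgeR adjusted p of 0.609. At 24 h the difference from 0 h was -0.0015 on the log2 scale with a 95% interval from -0.27 to 0.27, and at 1 h it was -0.27 (-0.58 to 0.05). The libraries of 1 and 12 h lay below those of 0 h without overlap, and a change inside these intervals was not detectable at this depth.

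Set beside all genes tested, the members' calls against 0 h were as follows. At 1 h, 0 of 5 members passed edgeR's test, where 0.312% of all genes did; 1 member, CXCL11, had an unadjusted p under 0.05, and limma-voom called 0 as well. At 3 h 1 member was higher and 1 lower, with 17.7% of all genes called. At 6 h 1 member was higher (30.1% of all genes called, 16.9% called higher), and at 12 h 2 were higher (12.4% called, 5.96% called higher). At 24 h 3 were higher (35.1% called, 18% called higher). The median log2 difference of the 5 members over the later times in order was 0.32, 0.51, 0.16, 0.99 and 0.72, against medians between -0.02 and 0.00 over all genes. With 5 members each median is the value of 1 gene, CCL5 at 1, 6 and 12 h, CXCL11 at 3 h and CX3CL1 at 24 h. Of these values only that of CX3CL1 was called. Between consecutive times, 1 member was called from 1 to 3 h (CX3CL1, lower; 5.73% of all genes called), 1 from 3 to 6 h (CCL5, lower; 43.2%), 1 from 6 to 12 h (CX3CL1, higher; 20.6%) and 1 from 12 to 24 h (CXCL11, higher; 12%). The 1 and 1 at 3 h are different genes moving in opposite directions, CCL5 up and CX3CL1 down.

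**Figure D3:**
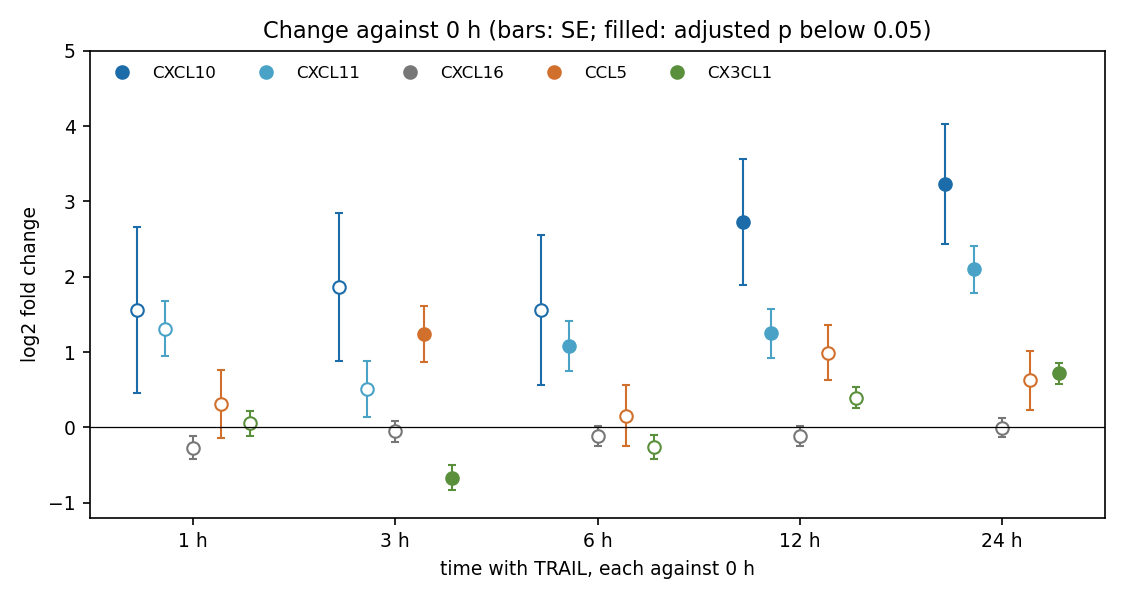
Log2 fold change of each chemokine against 0 h (vertical axis) at each later time; bars are SE, and filled points passed edgeR's test at an adjusted p under 0.05. At 24 h CXCL10, CXCL11 and CX3CL1 are filled, at 3.23, 2.10 and 0.72, and CXCL16 sits near 0 throughout.

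Ordered by mean CPM, the times ran 0, 6, 1, 3, 12 and 24 h for CXCL10, 0, 3, 6, 12, 1 and 24 h for CXCL11, and 1, 12, 6, 3, 24 and 0 h for CXCL16. For CCL5 the order was 0, 6, 1, 24, 12 and 3 h, and for CX3CL1 it was 3, 6, 0, 1, 12 and 24 h. Of the 25 pairs of neighbours in these orders, 1 passed the test, CXCL11 at 1 and 24 h (edgeR adjusted p = 0.0417). Between these times 39% of all genes were called, and the CXCL11 call was lost without either library of 1 h. Neighbours were picked as the closest means in the same data, so a low number was built in. CXCL11 and CX3CL1 had a Pearson correlation of 0.594 over the 17 libraries, CXCL10 and CX3CL1 0.434, and CCL5 and CX3CL1 -0.08.

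Among tested genes whose average log2 CPM was 2 or more, the genes most like each member across the 17 libraries were found by Pearson correlation of log2 CPM, as a description. CX3CL1 was most like JUP (0.951), ADAMTS15 (0.950) and ACSF2 (0.949). JUP, which encodes the junction protein plakoglobin, had 36.8 ± 1.36 CPM (SD, n = 3) at 0 h, 31.0 ± 1.51 at 3 h and 49.7 ± 1.22 at 24 h. CXCL11 was most like CCDC69 (0.823), SPPL3 (0.816) and SAMD9L (0.811), and SAMD9L, an interferon-induced gene, had 22.8 ± 1.08 CPM (SD, n = 3) at 0 h and 40.2 ± 5.17 at 24 h. CXCL10 was most like SAR1A (0.803), MUSK (0.787) and SPA17 (0.772), CCL5 most like DDTL (0.787), BBS12 (0.743) and ZNF133 (0.733), and CXCL16 most like TTC23 (0.725), SLC25A17 (0.650) and ELP2 (0.630). With Spearman correlation, 1 of 3 names was shared for CXCL10, 2 for CXCL11, 3 for CXCL16, 0 for CCL5 and 1 for CX3CL1, and over the 6 time means 0 were shared for any member, so the names are weakly fixed.

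Of 10 listed receptors of these ligands, 7 had too few counts to be tested. CX3CR1 and the decoy receptor ACKR1 had 0 counts in all 17 libraries, which allows up to 0.0111 CPM over the series, and CXCR3 had at most 2 counts. CXCR6, CCR1 and ACKR3, which binds CXCL11, passed the filter, and CXCR6 had 2 to 13 counts per library. CCR1 fell at 6 h (log2 change -1.89, edgeR adjusted p = 0.0163), from 7 to 12 counts per library at 0 h to 1 to 5, a call lost by DESeq2 and without replicate 1 of 0 h or replicate 2 or 3 of 6 h. Among 22 other chemokines that attract lymphocytes or monocytes, 11 had 0 counts in all 17 libraries, including CXCL9, the third CXCR3 ligand, and 2, CCL26 and CCL28, could be tested. CCL28 was lower at 6 h (-0.47, edgeR adjusted p = 0.00889).

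Of 6 chemokines that attract neutrophils, 4 were tested, and over the 4 times from 3 h on, 4, 4, 3 and 2 of them were called higher, where 9.04%, 16.9%, 5.96% and 18% of all genes were. CXCL1 was higher at 3 h by 2.90 (edgeR adjusted p = 1.70e-09) and CXCL8 by 2.34 (4.50e-11). No test of the difference between these and the lymphocyte chemokines was run.

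Of 8 genes for enzymes that cut or trim these ligands and for factors that mature the sheddases, all were tested. Of these, 3 were lower at 3 h (8.71% of all genes were called lower), ADAM8, ADAM9 and ADAM10, and 3 were higher at 24 h (18% called higher), ADAM8, ADAM10 and ADAM17. ADAM17 rose from 23.5 ± 3.34 CPM (SD, n = 3) at 0 h to 36.5 ± 4.59 at 24 h, a difference of 0.63 (log2, edgeR adjusted p = 0.00197). ADAM10 went from 148 ± 15.4 CPM (SD, n = 3) to 113 ± 17.9 at 3 h (-0.39, adjusted p = 0.0311) and 196 ± 16.7 at 24 h (0.41, 0.0125), by edgeR. The count of 3 at 3 h was 1 without replicate 2 or 3 of 0 h or without replicate 1 or 2 of 3 h.

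Of 11 NF-κB subunits and inhibitors, all tested, 2 were higher after 1 h (0.26% of all genes were called higher), 9 after 3 h (9.04%), 11 after 6 h (16.9%), 6 after 12 h (5.96%) and 7 after 24 h (18%), and 0 were called lower at any time. Their median difference was 0.12, 0.96, 0.69, 0.33 and 0.61. NFKBIA, the inhibitor that NF-κB itself induces, went from 44.3 ± 1.69 CPM (SD, n = 3) at 0 h to 116 ± 3.33 at 3 h (log2 1.39, edgeR adjusted p = 1.51e-11) and was at 76.4 ± 3.95 at 24 h. TNFAIP3, a feedback inhibitor, was higher at 3 h by 1.57 (adjusted p = 1.48e-09), and NFKB2, the subunit named in the series title, by 1.01 at 3 h and 0.61 at 24 h (edgeR adjusted p = 2.72e-09 and 3.83e-06). Most of these genes were called at 3 and 6 h. Of these 2 times, CCL5 was called higher at 3 h only and CXCL11 at 6 h only. CXCL10 was called at neither with all libraries, and at both without replicate 1 of 0 h, which held its 4 counts at 0 h. The difference between these courses was not tested.

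Of 22 interferon-stimulated genes tested, 0 were called higher and 4 lower at 3 h (8.71% of all genes called lower), and 2 were higher and 13 lower at 6 h (13.2% of all genes called lower). At 12 h 4 were higher (5.96% called higher) and 1 lower, and at 24 h 12 were higher and 1, IFI27, lower (18% called higher). The median difference was 0.05, -0.13, -0.39, 0.10 and 0.40 over the 5 later times. GBP4, a guanylate-binding protein, rose from 4.75 ± 1.17 CPM (SD, n = 3) at 0 h to 12.6 ± 1.53 at 24 h (log2 1.41, edgeR adjusted p = 5.53e-06). IFIT2 went from 49.9 ± 0.386 CPM (SD, n = 3) to 36.6 ± 2.39 at 3 h (-0.45, edgeR adjusted p = 1.80e-04) and 88.4 ± 1.51 at 24 h (0.83, 4.52e-08). OAS1 was lower at 6 h by 1.07 (log2 change -1.07, adjusted p = 0.0114), and IFI44L was higher at 24 h by 0.91 (0.0252), by edgeR. The 13 lower genes at 6 h became 7 without replicate 3 of 6 h, the 4 lower genes at 3 h became 7 with library size only, and the 4 higher genes at 12 h became 2 with length and GC offsets and 1 without replicate 1 or 2 of 0 h or replicate 2 of 12 h.

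Of 18 tested interferon ligand, receptor and signalling genes, 5 were higher and 2 lower at 6 h, and 9 were higher and 1 lower at 24 h. With 1 library left out, the 5 became 3 to 5 and the 9 became 5 to 9. Under the other alternatives they ranged from 3 to 5 and from 6 to 10. IFNB1 and IFNG had 0 counts in all 17 libraries, and IFNL1 at most 4. Among 11 genes that sense foreign nucleic acids or pass the signal on, 6 were higher and 2 lower at 6 h. At 24 h 8 of them were higher and 0 lower. With 1 library left out, the 6 became 4 to 6 and the 8 became 7 to 8. Under the other alternatives they ranged from 3 to 6 and from 7 to 9. At 24 h DDX58, which encodes RIG-I, was higher by 1.04 (edgeR adjusted p = 1.03e-07). TLR3, the sensor of double-stranded RNA, was lower at 3 h by 1.02 (log2 change -1.02, adjusted p = 4.27e-04). The counts at 6 h stand against 16.9% of all genes called higher and 13.2% called lower. Those at 24 h stand against 18% called higher.

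**Figure D4:**
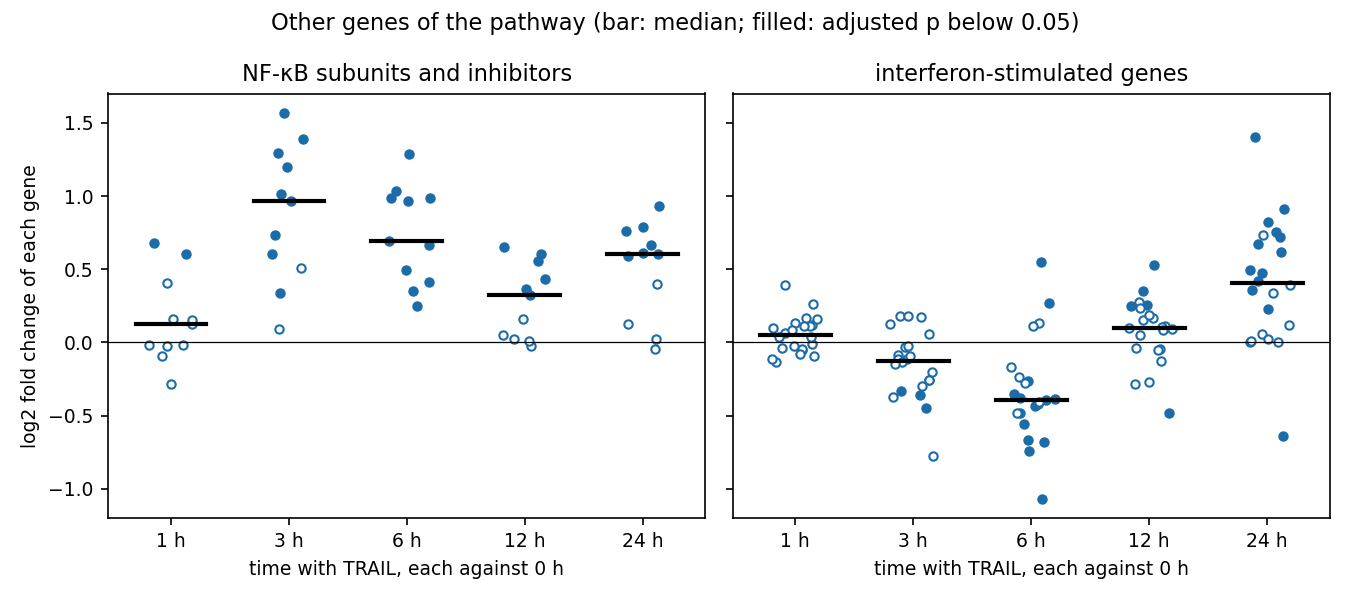
Log2 fold change against 0 h (vertical axis) of each tested NF-κB subunit or inhibitor (left, 11 genes) and each interferon-stimulated gene (right, 22 genes) at each later time; horizontal bars are medians, and filled points passed edgeR's test at an adjusted p under 0.05. The NF-κB median is highest at 3 h (0.96), and the interferon median is lowest at 6 h (-0.39) and highest at 24 h (0.40).

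Other measures also differed between 0 and 24 h. Libraries at 24 h held less mitochondrial RNA than those at 0 h, 3.90% ± 0.240 (SD, n = 3) against 6.75% ± 1.46 (SD, n = 3) of counts. At 1, 3, 6 and 12 h the mean share was 8.68%, 8.59%, 4.49% and 5.72%. The part of mitochondrial RNA in the results was not tested. The summed level of 11 T and natural killer cell markers, of which CD3E, CD3G, CD2 and PRF1 were at 0 in all 17 libraries and CD3D had at most 1 count, ran from 2.24 to 2.80 CPM at 0 h and from 3.34 to 4.33 at 24 h. Much of it was TRAC, at 1.22 ± 0.343 CPM (SD, n = 3) at 0 h and 2.63 ± 0.379 at 24 h (log2 1.10, edgeR adjusted p = 0.00729). Among the other T and natural killer cell markers, CD8A had 11 to 19 counts at 0 h and 9 to 21 at 24 h. GNLY had 3 to 5 and 0 to 4 counts at these times, and CD247 had 1 to 3 and 0 to 1. The pan-leukocyte gene PTPRC had 0 to 5 counts per library. Together with CD52 and CORO1A it summed to 2.55 to 2.80 CPM at 0 h and, lower, to 1.93 to 2.47 at 24 h. The 6 myeloid markers, mostly CD68, summed to 81.8 to 92.5 CPM at 0 h and 99.8 to 106 at 24 h, and the 4 endothelial markers, with CDH5 at 0 to 2 counts, to 3.36 to 4.98 and 6.34 to 7.44; the part of either was not tested. For the line itself, the 6 mesenchymal markers were all detected in every library, with VIM at 37967 to 63103 counts, and at 24 h 2 of them were called higher and 2 lower. Of the 9 luminal markers, ESR1 had at most 2 counts and PGR at most 1, while KRT8 had 12308 to 18612, ERBB2 786 to 1221 and EPCAM 204 to 346. With offsets for transcript length and GC content, the differences at 24 h were 3.29 for CXCL10, 2.16 for CXCL11 and 0.71 for CX3CL1 (edgeR adjusted p = 0.00197, 1.89e-05 and 4.76e-04).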

How the data were processed

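RNA-seq of 17 libraries was analysed from 1 table in which the authors deposited expected counts per gene, which the file name credits to RSEM; 10.8% of the values were not whole, and they were rounded for the tests. Per the submitters' processing notes, cutadapt 1.18, STAR 2.7.0f and hg38 were used. The RSEM version, annotation and strand setting are not given in the sources used here, so positions are those of GENCODE 29 (GRCh38), whose identifiers, versions ignored, matched 58597 of 58870 entries.

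Columns were assigned to samples by the labels, and 0 columns lacked one. Genes were filtered with filterByExpr, scaled by TMM (factors 0.939 to 1.06) and fitted with edgeR 4.0.16 (R 4.3.3; robust quasi-likelihood, 1 mean per time, no covariate, all 17 libraries). Each pair of times was compared, with Benjamini-Hochberg adjustment over 15365 genes. DESeq2 1.42.0, limma 3.58.1 (voom), other scalings, filters, offsets and each library left out in turn were alternatives. Scripts were tested on simulated data. Length is the median of GENCODE basic transcripts.

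The members and gene lists were chosen with earlier results of these data known, and those results give no independent support here. Named beside the members are, per list, up to 4 genes called against 0 h with the largest change, NFKB2, and the 3 genes most correlated with each member. Other genes given with values serve to describe their list and were chosen after their values were seen. Replicates 2 and 3 of 6 h and of 24 h were closer to each other (chi-square per gene 1.57 and 1.67) than other pairs (3.68 to 13.5) but above sampling noise, so they were kept as separate libraries; averaging them was an alternative. Some genes of the lists are not reported here by name.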

Additional observations from a re-analysis of the deposited data

How the results depend on the processing

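Low counts limit these results: CXCL10, CXCL11 and CCL5 never passed 33 counts in a library, and DESeq2 gave no adjusted p for several of them. The number of members called at 1 h (0) and at 24 h (3) against 0 h and from 6 to 12 h (1) stayed within 1.5 times under every setting that could be run, with 2 at 24 h by DESeq2, with a mean count of at least 10 and with only the times compared, where CXCL10 was not tested, and 3 or 4 were called over all times. At 3 h against 0 h the count of 2 became 1 with no filter on low counts, by DESeq2 and with only the times compared in the fit; in the last 2 CCL5 was not tested. At 6 h the count of 1 became 0 with no filter, by DESeq2 and with the close replicate pairs averaged. At 12 h the count of 2 became 1 with a mean count of at least 10 (CXCL10 was then not tested) or with only the times compared (likewise), and 0 by DESeq2, which tested neither CXCL10 nor CXCL11. From 1 to 3 h the count of 1 became 0 by DESeq2 and with only the times compared. From 3 to 6 h it became 2 with library size only, where CX3CL1 was also called (0.48, edgeR adjusted p = 0.0350), and 0 with no filter, by DESeq2, with length and GC offsets, with those offsets and the replicate block, and with only the times compared, where CCL5 was not tested. From 12 to 24 h it became 0 with no filter, by DESeq2 (CXCL11 not tested), with only the times compared and with the pairs averaged. The count of 1 neighbouring pair of times that differed became 0 under upper-quartile scaling, no filter, DESeq2, only the times compared and averaged pairs, and 2 with library size only. Where a member is named as not tested, its call was lost for that reason; for the others the cause was not tested.

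With 1 library left out, the counts ranged from 1 to 2 at 3 h, 0 to 2 at 6 h, 0 to 2 at 12 h, 0 to 1 from 1 to 3 h, 0 to 1 from 3 to 6 h, 0 to 1 from 12 to 24 h and 0 to 2 among neighbours.

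Signs turned only in differences that were not called. For CXCL16 from 6 to 12 h the log2 difference became 6.82e-05 under RLE scaling, 0.0701 under upper-quartile scaling, 0.0305 with library size only, 8.09e-04 with no filter, 2.11e-04 by DESeq2, 0.0028 by limma-voom, 2.02e-05 with the replicate block, 0.0206 with only the times compared and 0.0017 with averaged pairs.  For CXCL16 at 24 h against 0 h it became 0.0719 with library size only, 0.0823 with offsets, 0.0813 with offsets and the block and 0.0309 with averaged pairs. For CXCL16 from 3 to 6 h it became 0.0126 with library size only, 0.0154 with offsets and 0.0163 with offsets and the block. With each library left out in turn, the difference of CXCL16 ranged from -0.127 to 0.0472 at 3 h against 0 h, from -0.081 to 0.0837 at 24 h against 0 h, from -0.160 to 0.0151 from 3 to 6 h and from -0.0517 to 0.0494 from 6 to 12 h. That of CCL5 at 6 h against 0 h ranged from -0.102 (without replicate 1 of 0 h) to 0.430. That of CXCL10 ranged from -0.0508 (without replicate 1 of 1 h) to 0.746 from 1 to 3 h, from -1.27 to 0.129 (without replicate 1 of 6 h) from 3 to 6 h and from -0.0317 (without replicate 1 of 24 h) to 0.858 from 12 to 24 h.

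For same-numbered libraries of different times, the mean correlation of their deviations from the time means was 0.03 over 40 pairs, 19 of them over 0.1. For libraries of different number it was -0.015 over 80 pairs, 30 of them over 0.1. Centring within each time roughly ties the mean of same-numbered pairs to that of the others, with opposite sign. A small mean of same-numbered pairs does not exclude weak pairing or pairing between some times only. Of 17 libraries, 8 correlated best with their own number. The numbers are thus not shown to pair the libraries, and pairing is not excluded. The replicate block gave the same counts of members called, 0, 2, 1, 2 and 3 at 1, 3, 6, 12 and 24 h against 0 h, 1 between each pair of consecutive later times and 4 over all times, and by itself changed no call. Beside the offsets it did: CCL5 over all times had an adjusted p of 0.0418 with offsets alone and 0.0556 with offsets and the block, so 3 members were called there. Over the 45 member comparisons, alternatives other than leaving out a library kept direction and call in 555 values. They lost a call in 13, gained one in 3 and turned the sign in 16. Values where a member was not tested or had no adjusted p are not among these. CXCL10 at 12 and at 24 h against 0 h, called in the main fit, thus had values in 11 of 14 such alternatives. Leaving out a library gave 724, 29, 2 and 10.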
